A study of Mus musculus with 4 samples.

Results

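The transcripts of 6 constant regions of the T cell receptor and of 4 chains of the CD3 complex were examined in ILC2s, the type 2 innate lymphocytes, which make type 2 cytokines at barrier surfaces and display no rearranged antigen receptor. The 10 genes were taken by symbol from the 17187 genes of the table, and all 10 had values. They are the constant regions Trac, Trbc1, Trbc2, Trdc, Trgc1 and Trgc2 and the CD3 genes Cd3d, Cd3e, Cd3g and Cd247. Sorted lung ILC2s of BALB/c mice were kept in culture for 18 hours, either with anti-CD226 antibody, which blocks a costimulatory receptor, or with isotype control, giving 2 libraries per group. The antibody was used at 5 µg/mL, a dose whose wording may or may not cover the isotype control. All mice were wild type according to the design text, which speaks of treated mice where the protocols speak of cultured cells. The treatment column of the table names the controls PBS. The number of mice per library, their age and sex and the gates of the sort are not stated. The labels do not say that replicate libraries stem from different mice or cultures. The p-values thus cover library-to-library spread alone, and this may be purely technical.

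In T cells an alpha chain pairs with a beta chain, or a gamma chain with a delta chain, and each chain joins a variable part to a constant part after its gene has been rearranged. The receptor reaches the surface only together with the CD3 gamma, delta, epsilon and zeta chains, whose cytoplasmic tails carry the signal. A constant region can also be transcribed from a promoter close to it when no complete receptor gene has been assembled, which gives a germline transcript without a variable part. Lung ILC2s of mice have been reported to hold incomplete rearrangements of receptor genes, so transcripts of constant regions and of CD3 chains need not go together in these cells.

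Estimated depth was between 12433716 and 17847330 reads per library, and between 16602 and 16847 genes were above 0. The ILC2 markers Gata3, Il1rl1, Rora, Il7r, Icos and Klrg1 were all detected and summed to 40730 and 42134 normalised reads in the anti-CD226 libraries and to 38414 and 37912 in the isotype libraries. Values are the authors' normalised reads. One read was worth between 0.773 and 1.11 of them, so 3 reads, the floor that counting sets in a library, lay between 2.32 and 3.32. Reads of amplified libraries are not independent molecules, and floors and intervals cover counting error only.

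The constant genes form families of similar sequence, and how far their reads can be told apart bears on every value that follows. The first 120 bases of the first constant exon of the 4 gamma genes are shown to let their differences be seen, with capitals where a base differs from Trgc1 in the alignment (GENCODE M21 transcripts on GRCm38, 5′ to 3′).
Trgc1, chr13:19214103-19214222, plus strand: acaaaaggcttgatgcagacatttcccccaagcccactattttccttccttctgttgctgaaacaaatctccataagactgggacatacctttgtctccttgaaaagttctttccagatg
Trgc2, chr13:19307432-19307551, minus strand: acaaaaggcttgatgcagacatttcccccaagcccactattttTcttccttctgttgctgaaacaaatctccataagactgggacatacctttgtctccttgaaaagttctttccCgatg
Trgc3, chr13:19260885-19261004, plus strand: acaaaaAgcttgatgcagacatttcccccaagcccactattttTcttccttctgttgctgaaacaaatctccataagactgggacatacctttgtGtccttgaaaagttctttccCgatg
Trgc4, chr13:19344558-19344677, plus strand: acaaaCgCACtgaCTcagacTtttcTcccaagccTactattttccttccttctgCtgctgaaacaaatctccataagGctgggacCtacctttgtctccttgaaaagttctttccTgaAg
Trgc2 and Trgc3 differed from Trgc1 at 2 and 4 of these 120 bases, and Trgc4 at 14. Over the aligned transcripts Trgc1 was 96.1% identical to Trgc2, 97.2% to Trgc3 and 74.1% to Trgc4, with longest identical runs of 104, 122 and 29 bases. Reads that fall within such a run cannot be placed on one copy, and how the authors placed them is not stated. Trbc1 and Trbc2 were 89.0% identical with an unbroken run of 259 bases, and the first 120 bases of their constant exons did not differ.
Trbc1, chr6:41538218-41538337, plus strand: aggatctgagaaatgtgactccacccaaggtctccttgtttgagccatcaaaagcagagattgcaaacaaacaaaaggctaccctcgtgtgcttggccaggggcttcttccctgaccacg
The split between Trbc1 and Trbc2, and that among Trgc1, Trgc2 and Trgc3, is therefore uncertain, while Trgc4 is more distinct. The sequences are those of the C57BL/6J reference, and what strain differences of BALB/c do to the alignment of reads was not tested.

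Within these cells the constant genes did not go together. Trgc1, Trbc2 and Trbc1 were abundant, Trgc2 and Trdc were low, and Trac was at the limit of detection. Trgc1, the constant region of the first gamma cluster, lies on chromosome 13 from 19214103 to 19217024 (GRCm38, plus strand). It had 5059 and 3050 normalised reads in the anti-CD226 libraries and 4868 and 5322 in the isotype libraries. The value of 3050, in anti-CD226 replicate 2, stood below the other 3 libraries, and the groups overlapped. Per kb of its longest transcript Trgc1 averaged 4951 normalised reads over the 4 libraries, rank 164 among the 16979 genes with a length. In bulk RNA fewer cells of a type and less RNA per cell cannot be told apart, which holds for every level given here.

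The beta constant regions came next. Trbc2, on chromosome 6 from 41546730 to 41548352 on the plus strand, had 2125 and 1340 in the anti-CD226 libraries and 1959 and 2370 in the isotype libraries. Trbc1, which lies 6.85 kb upstream from 41538218 to 41539881 on the same strand, had 837 and 602 in the anti-CD226 libraries and 857 and 948 in the isotype libraries. Anti-CD226 replicate 2 was again the lowest library for both genes, and only for Trbc1 did the groups not overlap. Per kb, Trbc2 stood above Trbc1 by 2.54 ± 0.235 times in anti-CD226 and 2.55 ± 0.161 times in isotype libraries (SD, n = 2 each), a ratio that depends on how reads of the shared run were placed.

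Trac, the alpha constant region, was near 0 in every library. It had 2.06 and 3.31 normalised reads in the anti-CD226 libraries, which are 2 and 3 estimated reads, and 3.32 and 4.64 in the isotype libraries, which are 3 and 6. Both groups lie close to the floor, so no fold between them is given. Over the 4 libraries Trbc1 had 3361 estimated reads against 14 of Trac, per kb a ratio of 305 with a 95% interval from 181 to 558 (exact binomial). The alpha chain without which a beta chain forms no complete receptor was thus represented by 14 reads in all.

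Trdc, the delta constant region, lies in the same locus 71.7 kb before Trac, on chromosome 14 from 54142851 to 54148868 (plus strand). It had 101 and 58.4 normalised reads in the anti-CD226 libraries and 47.5 and 33.2 in the isotype libraries. Both anti-CD226 libraries stood above both isotype libraries. Trdc has a long annotated transcript of 3865 bases, and per kb it averaged 15.5 normalised reads over the 4 libraries, at the 35.0th percentile. An antisense gene, Gm43434, and a delta variable segment, Trdv5, are annotated on the opposite strand over parts of Trdc. Without strand their reads cannot be told apart from those of Trdc.

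Trgc2, the gamma constant gene on the minus strand of the locus (19304649 to 19307551), had 60.7 and 70.5 in the anti-CD226 libraries and 77.4 and 74.2 in the isotype libraries. All 4 values lie within a narrow range, with both anti-CD226 libraries the lower ones. Of the gamma constant genes that were not among the 10, Trgc3 had between 1.13 and 6.73 normalised reads in a library. Trgc4, the most distant of them in sequence, had 3111 and 2539 in the anti-CD226 libraries and 2864 and 3322 in the isotype libraries. Of all gamma constant values Trgc1 made up 57.7% ± 5.35 in anti-CD226 and 61.6% ± 0.889 in isotype libraries (SD, n = 2 each). The share of Trgc4 was 41.3% ± 5.00 in anti-CD226 and 37.4% ± 1.02 in isotype libraries, and in every library Trgc2 and Trgc3 together held the small rest.

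**Figure D1:**
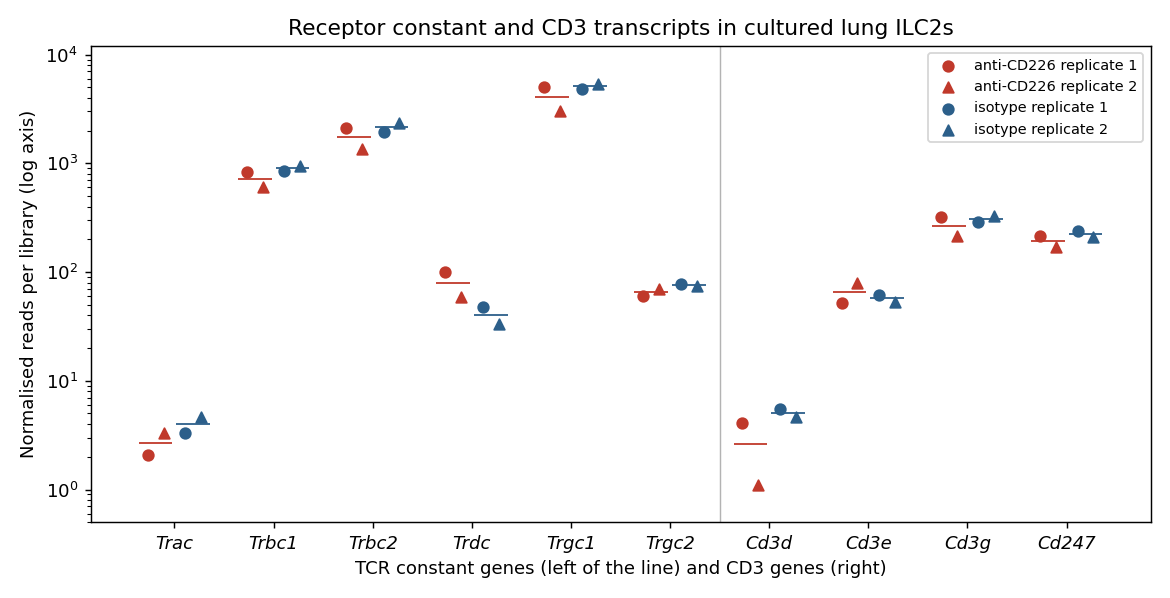
Normalised reads of the 10 genes in each library on a log axis, with constant genes left of the line and CD3 genes right of it. Points are libraries, short lines are means of the 2 libraries of a group, and values run from 1.10 for Cd3d to 5322 for Trgc1.

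Gamma variable segments were scarce beside the gamma constant regions. The delta segment Trdv4 stood above Trdc per kb but below it before division by length. Of the segments with a value, Trgv1, Trgv2, Trgv5 and Trdv4, Trdv4 alone averaged 10 or more. Trdv4, a delta variable segment, had 36.0 and 32.0 in the anti-CD226 libraries and 34.3 and 30.9 in the isotype libraries, nearly the same in all 4. Per kb it exceeded Trdc by 3.11 and 4.76 times in the anti-CD226 libraries and by 6.28 and 8.1 times in the isotype libraries. These ratios were lower where Trdc was higher. They rest on annotated lengths of 444 bases for Trdv4 and 3865 for Trdc. Before division by length Trdc was above Trdv4 in every library, with 101 and 58.4 in anti-CD226 and 47.5 and 33.2 in isotype libraries. The gamma segments Trgv1, Trgv2 and Trgv5 summed to 24.7 and 12.1 normalised reads in the anti-CD226 libraries and to 4.42 and 10.0 in the isotype libraries. Per kb that was 0.661% and 0.426% of the 4 gamma constant genes in the anti-CD226 libraries and 0.117% and 0.255% in the isotype libraries. Most of these reads were of Trgv2, with 15 and 10 estimated reads in the anti-CD226 libraries and 3 and 8 in the isotype libraries. Segments besides these 4 were not analysed here, so the total of variable segments is not known from these values, and a read that spans a junction may have been left unassigned.

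The CD3 chains were uneven as well. Cd3g, the gamma chain, was the highest of them and Cd3d, the delta chain, was at the limit of detection. Cd3g had 319 and 215 normalised reads in the anti-CD226 libraries and 288 and 325 in the isotype libraries. Anti-CD226 replicate 2 was the lowest library and the groups overlapped. Cd3d had 4.12 and 1.10 in the anti-CD226 libraries and 5.53 and 4.64 in the isotype libraries, which are 4 and 1 estimated reads against 5 and 6. Cd3d and Cd3g are neighbours on chromosome 9 that are read in opposite directions, with annotated starts 1.36 kb apart. Cd3g spans 44969572 to 44980431 on the minus strand and Cd3d spans 44981786 to 44987339 on the plus strand. Over the 4 libraries Cd3g had 1187 estimated reads and Cd3d 16, a ratio of 74.2 (95% interval from 45.5 to 130, exact binomial) and of 47.2 per kb (29.0 to 82.9). Per kb of the longest coding transcripts, which leaves out the retained introns of Cd3g, the ratio was 117 (71.9 to 206). Per kb of the longest transcripts the ratio was 64.3 in anti-CD226 (27.4 to 199) and 39.5 in isotype libraries (21.9 to 79.5), so the intervals of the groups overlap.

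The 250 bases before each of the 2 starts are shown because these neighbours differ most among the CD3 genes (RefSeq, GRCm38.p6, 5′ to 3′ in the direction of each gene). Capitals mark matches on either strand to 4 motifs. These were TGTGGT for RUNX factors, TATAAA for the TATA box, the E box CACCTG, which also reads CAGGTG on the other strand, and for GATA factors AGATAA with its variants ending in G or starting with T.
Cd3g, chr9:44980432-44980681, minus strand: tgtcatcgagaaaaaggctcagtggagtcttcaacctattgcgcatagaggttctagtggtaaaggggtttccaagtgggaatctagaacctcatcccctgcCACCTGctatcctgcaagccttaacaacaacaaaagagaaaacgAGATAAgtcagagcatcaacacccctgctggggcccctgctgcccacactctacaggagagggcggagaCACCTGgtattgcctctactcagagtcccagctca
Cd3d, chr9:44981536-44981785, plus strand: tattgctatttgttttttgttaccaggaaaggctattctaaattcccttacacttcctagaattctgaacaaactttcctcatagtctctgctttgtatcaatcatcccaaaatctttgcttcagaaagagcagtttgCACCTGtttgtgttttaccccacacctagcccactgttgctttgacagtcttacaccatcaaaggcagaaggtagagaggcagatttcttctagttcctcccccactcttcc
The Cd3g window held 2 E box matches, 148 and 35 bases before the start, and 1 GATA match at 104 bases. The Cd3d window held 1 E box match, at 112 bases. No match to the RUNX or TATA letters was found in either window. Of 32851 promoter windows of this length, 17.2% held an E box match, 26.5% a GATA match, 14.0% a RUNX match and 12.4% a TATA match. The GC content was 51.6% before Cd3g and 41.2% before Cd3d, against a median of 52.4% over all promoters. Such matches describe the letters of the windows and not the binding of a factor. Promoter sequences were found for the 4 CD3 genes of the 10 genes. Of the windows not shown, that of Cd247 held 1 E box match, at 10 bases, and no other match. The Cd3e window held no match to any of the 4 motifs. Their GC content was 41.2% before Cd247 and 57.2% before Cd3e. Whether these letters bear on the level of a gene was not tested.

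Cd3e, the epsilon chain, lies in the same cluster from 44998740 to 45009627 on the minus strand. It had 51.5 and 79.4 normalised reads in the anti-CD226 libraries and 61.9 and 53.3 in the isotype libraries. Anti-CD226 replicate 2 was the highest library here, unlike for Cd3g. Cd3g exceeded Cd3e per kb by 6.23 and 2.72 times in the anti-CD226 libraries and by 4.68 and 6.13 times in the isotype libraries. The annotated genes Gm48719, on the opposite strand, and Gm48720, on the same strand, overlap parts of Cd3e, so part of its reads may belong to them. Cd247, the zeta chain, which also serves receptors of natural killer cells, lies apart on chromosome 1 from 165788681 to 165877277 (plus strand). It had 213 and 170 in the anti-CD226 libraries and 238 and 210 in the isotype libraries, with overlapping groups. The far end of Cd247 overlaps Pou2f1 on the opposite strand. Its start overlaps Gm16565 on the same strand, and other annotated genes lie within its span. Part of the reads of Cd247 may belong to these genes.

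**Figure D2:**
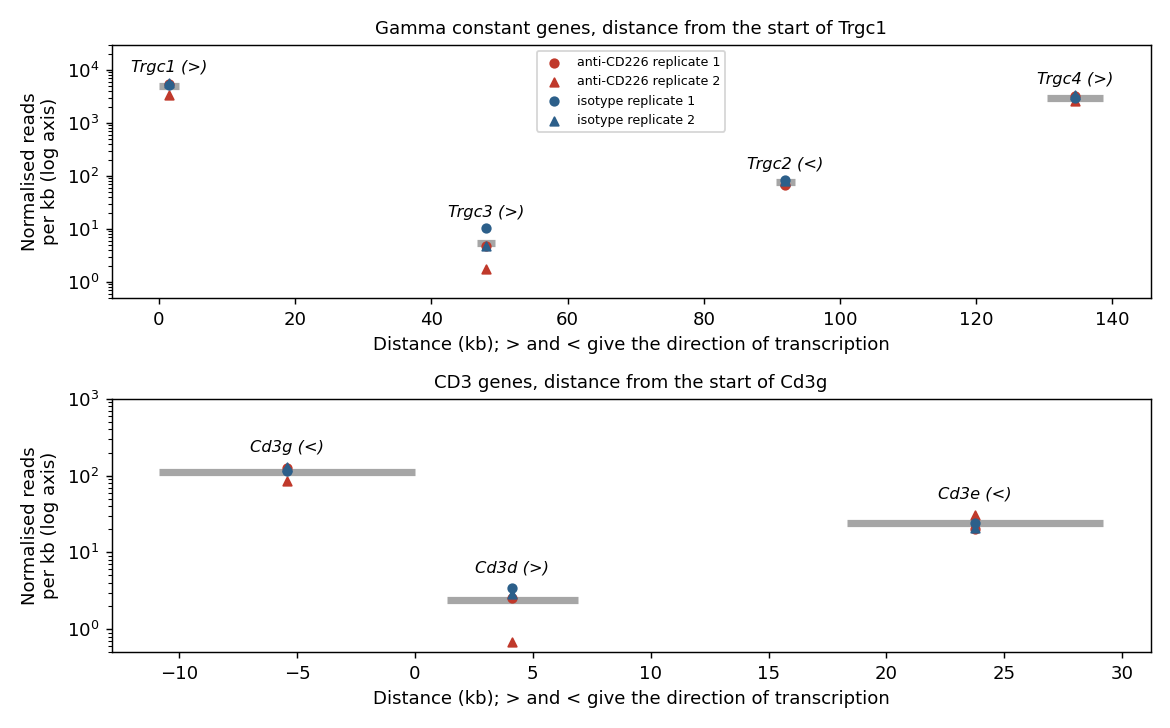
Levels per kb of longest transcript on a log axis along the gamma constant locus (top) and the CD3 cluster (bottom), against distance in kb. Points are libraries and horizontal bars span each gene at its mean, with Trgc1 and Trgc4 at the ends of the locus far above Trgc2 and Trgc3, and Cd3d below both of its neighbours.

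Set side by side per kb of longest annotated transcript, the 10 genes spanned from 2.38 normalised reads for Cd3d to 4951 for Trgc1, averaged over the 4 libraries. The order was Trgc1, Trbc2 (2816), Trbc1 (1100), Cd3g (113), Trgc2 (77.4), Cd247 (70.4), Cd3e (24.1), Trdc (15.5), Trac (3.56) and Cd3d. The ranges of the 4 libraries overlapped between Trgc1 and Trbc2, Trgc2 and Cd247, Cd3e and Trdc, and Trac and Cd3d, and between no other neighbours in this order. Trgc1 was nevertheless above Trbc2 in each of the 4 libraries. The longest transcripts of Cd3g and Cd3e retain introns. With the longest coding transcript Cd3g averaged 280.5 and Cd3e 42.1 per kb, and the order did not change. With the mean length of a gene's transcripts Cd247 (119) stood above Trgc2 (77.4) and Cd3d (5.24) above Trac (4.94).

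**Figure D3:**
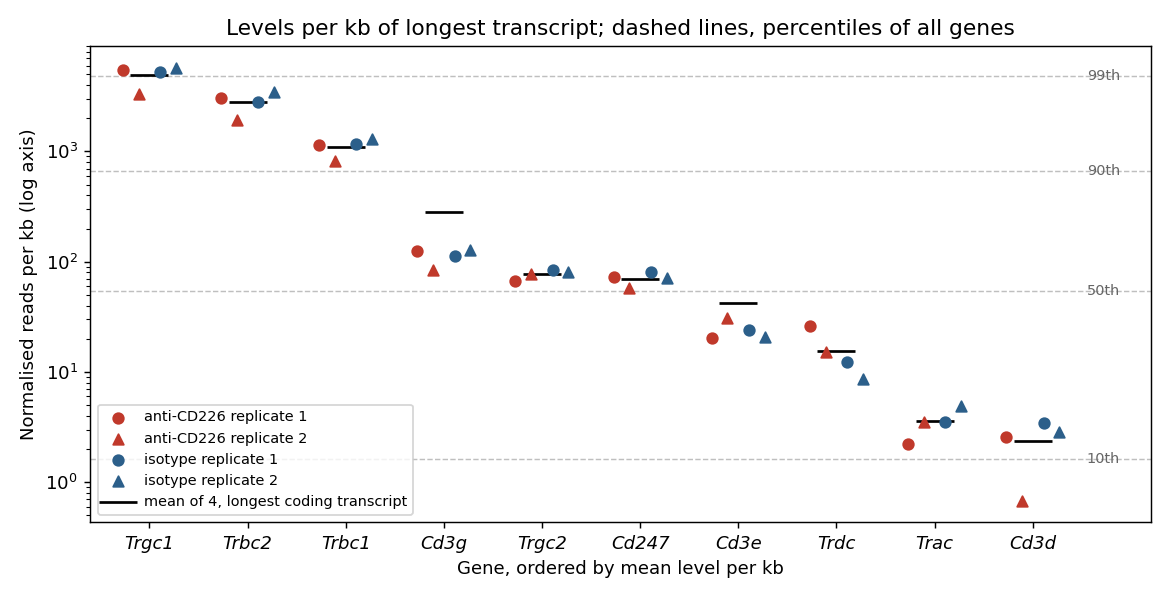
Normalised reads per kb of longest transcript for the 10 genes, by library, on a log axis, with black bars for the mean over the longest coding transcript. Dashed lines are the 10th, 50th, 90th and 99th percentiles of 16979 genes (1.61, 53.7, 667 and 4789), and 3 constant genes lie above the 90th while Cd3g, the highest CD3 gene, lies below it.

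The sum of the 6 constant genes per kb was 44.4 and 35.3 times that of the 4 CD3 genes in the anti-CD226 libraries and 42.2 and 47.4 times in the isotype libraries. The means were 39.8 ± 6.38 in anti-CD226 and 44.8 ± 3.66 in isotype libraries (SD, n = 2 each), with overlapping groups. With longest coding transcripts the ratio was 21.1 ± 2.92 in anti-CD226 and 23.8 ± 1.22 in isotype libraries. The excess came from the gamma and beta genes. Trac and Trdc alone reached 0.118 of the CD3 sum in anti-CD226 and 0.0661 in isotype libraries, and without Trgc1 and Trbc2 the constant sum was 5.41 times the CD3 sum in anti-CD226 and 5.94 times in isotype libraries. No p is given for these sums, since the genes were chosen with results known.

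Between the treatments no gene of the 10 passed the threshold. Of the 10 genes 8 had a mean of 10 or more and were tested, and Trac and Cd3d were not. In limma's test with Benjamini-Hochberg adjustment over all 13010 genes tested, 0 of the 8 had an adjusted p below 0.05, as did 0% of all genes. At an unadjusted p below 0.05 there was 1 of the 8, Trdc, against 2.37% of all genes. The anti-CD226 libraries lay wholly above the isotype libraries for 1 of the 8, Trdc, against 13.8% of all genes, and wholly below for Trbc1 and Trgc2, against 13.0%. Of the 8 genes 2 had a positive and 6 a negative log2 difference with a median of -0.23, beside a median of 0.01 over all genes tested.

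Trdc had the largest difference. Its mean was 79.7 ± 30.0 normalised reads in anti-CD226 and 40.4 ± 10.1 in isotype libraries (SD, n = 2 each), a log2 difference of 0.93 with a standard error of 0.36 on the log2(value + 1) scale. The unadjusted limma p was 0.0344 and the adjusted p 0.982. Against the isotype mean the log2 difference was 1.32 in anti-CD226 replicate 1 and 0.54 in replicate 2, while the isotype libraries themselves differed by 0.50. Without anti-CD226 replicate 1 the value was 0.54, and without isotype replicate 2 it was 0.68.

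Trgc1, Trbc2 and Trbc1 had lower means in anti-CD226, and the difference came from 1 library. Trgc1 averaged 4054 ± 1420 in anti-CD226 and 5095 ± 321 in isotype libraries (log2 difference -0.37, standard error 0.24). Trbc2 averaged 1733 ± 555 in anti-CD226 and 2165 ± 290 in isotype libraries (-0.35, standard error 0.24). For Trbc1 the means were 719 ± 166 in anti-CD226 and 903 ± 64.1 in isotype libraries (-0.35, standard error 0.21). Against the isotype mean, Trgc1, Trbc2 and Trbc1 differed by -0.74, -0.68 and -0.58 in anti-CD226 replicate 2 and by -0.01, -0.02 and -0.11 in replicate 1. Without replicate 1 these 3 genes passed (limma, adjusted p = 0.0027, 0.0069 and 0.029), in a fit that called 1633 of 13010 genes and in which the lone anti-CD226 library is assumed to vary like the isotype group. Without replicate 2 the differences were -0.01, -0.02 and -0.11.

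Anti-CD226 replicate 2 also differed from the isotype mean by transcript length. In the tenth of genes with the shortest transcripts, of up to 975 bases, its median log2 difference was -0.51, and in that with the longest it was 0.42. In anti-CD226 replicate 1 these medians were 0.07 and 0.00. The transcripts of Trgc1, Trbc1, Trbc2 and Trgc2 have 924, 737, 692 and 914 bases. With each library's trend with length removed, the log2 differences were -0.20 for Trgc1, -0.14 for Trbc2, -0.14 for Trbc1 and -0.03 for Trgc2, and 0.88 for Trdc. Apart from this value with the trend removed, the part of transcript length in the result was not tested.

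**Figure D4:**
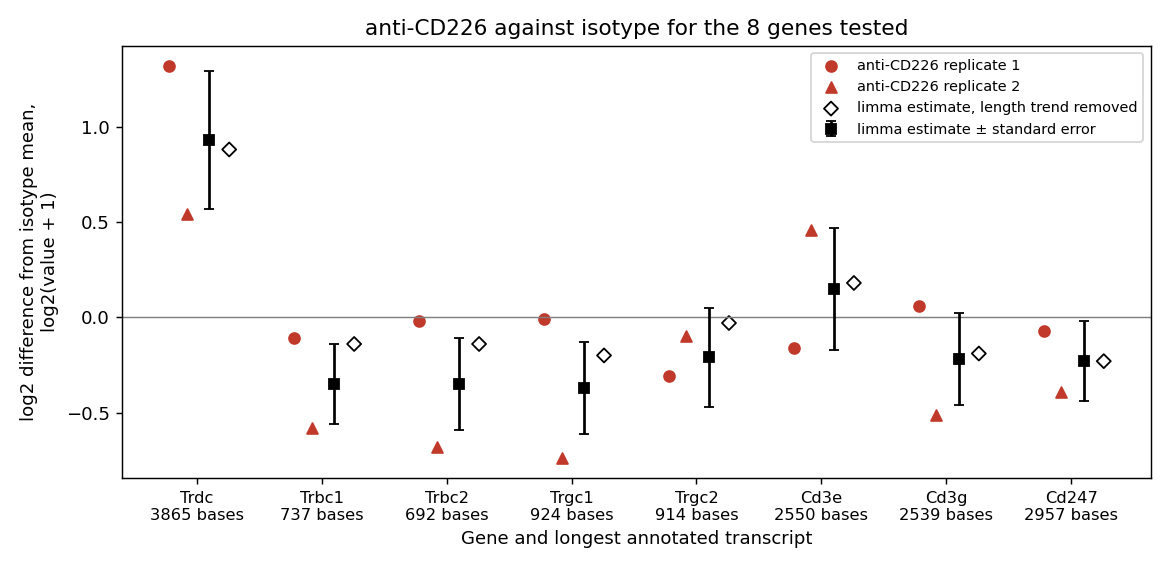
Difference from the isotype mean on the log2(value + 1) scale for the 8 genes tested. Red points are the 2 anti-CD226 libraries, black squares the limma estimates with standard errors, open diamonds the estimates with the length trend removed, and Trdc is the gene with both libraries above 0.

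The other genes had smaller differences. Trgc2 averaged 65.6 ± 6.92 in anti-CD226 and 75.8 ± 2.25 in isotype libraries (log2 difference -0.21, standard error 0.26). Cd3g averaged 267 ± 73.7 in anti-CD226 and 307 ± 26.1 in isotype libraries (-0.22, standard error 0.24), and Cd247 averaged 192 ± 30.1 in anti-CD226 and 224 ± 19.9 in isotype libraries (-0.23, standard error 0.21). Cd3e was the CD3 gene with a higher anti-CD226 mean, 65.4 ± 19.7 against 57.6 ± 6.06 in isotype libraries (0.15, standard error 0.32). Without anti-CD226 replicate 1 the value was -0.39 for Cd247 and -0.10 for Trgc2, and without anti-CD226 replicate 2 it was -0.07 for Cd247 and -0.31 for Trgc2. Without isotype replicate 1 Cd247 was at -0.14. Without anti-CD226 replicate 2 the sign turned for Cd3g, to 0.06, and for Cd3e, to -0.16.

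The genes whose pattern over the 4 libraries was most like that of Trdc, by Euclidean distance between centred log2 profiles among 10336 other genes with a mean of 50 or more, were Hes1, Rxra (0.422) and Atp9a (0.449), with Hes1 the closest. Hes1 had 106 and 60.6 normalised reads in the anti-CD226 libraries and 55.3 and 46.4 in the isotype libraries. The genes most like Cd3e were Nemp1 (0.0304), Ncoa6 (0.0329) and Mtmr3 (0.038). With only 4 libraries these distances are descriptions. Nemp1, Ncoa6 and Mtmr3 have transcripts of 6002, 7101 and 5674 bases, and each, like Cd3e, was highest in anti-CD226 replicate 2. The part of transcript length in this likeness was not tested.

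Markers of T cells were uneven, with some low and others not. Of 8 T cell markers Cd2, Cd27 and Cd28 were analysed here, and they summed to 45.3 and 49.6 normalised reads in the anti-CD226 libraries and to 57.5 and 51.8 in the isotype libraries. The others, Cd4, Cd8a, Cd8b1, Cd5 and Cd6, were not analysed here. Cd2, an adhesion receptor of T cells, had between 1.03 and 6.63 in a library, and Trat1, an adaptor bound to the receptor, between 0 and 5.53. Ubash3a, from the same list as Trat1, was far higher, with between 484 and 621. Foxp3, of regulatory T cells, had between 11.5 and 36.0, while Ikzf4, listed with it, had between 394.5 and 527.9. Of 7 markers of natural killer and cytotoxic cells, Prf1, Gzma and Nkg7 summed to 256 and 138 in the anti-CD226 libraries and to 199 and 325 in the isotype libraries, mostly Gzma. Lef1 and Ccr7, markers of naive T cells that other lymphocytes transcribe as well, summed to between 1286 and 1417. The part of any admixed cells in the constant and CD3 transcripts was not tested beyond these values.

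Several genes that act directly below a receptor were abundant, others were not. Of 17 genes listed for proximal receptor signalling 16 were tested, with 7 higher and 9 lower in anti-CD226. Their median log2 difference was -0.02, and 0 passed the adjusted threshold, against 0% of all genes. At an unadjusted limma p below 0.05 there was 1 of the 16, against 2.37% of all genes, namely the adaptor Lat, with a log2 difference of -0.53 (standard error 0.18) and an adjusted p of 0.982. The kinase Zap70, which binds phosphorylated CD3 tails, averaged 955 normalised reads per kb over the 4 libraries, against 113 for Cd3g. With the longest coding transcripts Zap70 stayed at 955 and Cd3g averaged 280.5. Before division by length Zap70 had 2092 and 2009 normalised reads in the anti-CD226 libraries and 2276 and 2202 in the isotype libraries. The phosphatase Ptprc averaged 10847 ± 2190 in anti-CD226 and 8934 ± 686 in isotype libraries (SD, n = 2 each). The adaptor Lcp2 averaged 6602 ± 725 in anti-CD226 and 5813 ± 346 in isotype libraries. The scaffold Vav1 averaged 3320 ± 356 in anti-CD226 and 3170 ± 325 in isotype libraries. Themis, a regulator of thymocyte signalling, had between 5.51 and 8.24 normalised reads in a library.

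Of 14 listed transcription factors that act at receptor and CD3 loci 13 were tested, with 10 higher and 3 lower in anti-CD226. Their median log2 difference was 0.13, and 0 passed the adjusted threshold, against 0% of all genes. The split over all 13010 genes was 6647 higher against 6363 lower, and their median was 0.01. At an unadjusted limma p below 0.05 there was 1 of the 13, against 2.37% of all genes, namely Lef1, with a log2 difference of 0.52 (standard error 0.22) and an adjusted p of 0.982. Id2, an inhibitor of E proteins, averaged 19378 ± 4080 in anti-CD226 and 21148 ± 1350 in isotype libraries. Gata3 averaged 16110 ± 1700 in anti-CD226 and 14004 ± 274 in isotype libraries, and Ets1 10475 ± 2260 in anti-CD226 and 9158 ± 1600 in isotype libraries. Bcl11b averaged 2528 ± 528 in anti-CD226 and 2237 ± 351 in isotype libraries. Tcf7, the factor that with Lef1 binds enhancers of receptor loci in thymocytes, had between 7.72 and 10.3. Of the genes of rearrangement and the pre-receptor only Ptcra, the surrogate alpha chain, was analysed, with 3.09 and 0 in the anti-CD226 libraries and 3.32 and 4.64 in the isotype libraries.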

How the data were processed

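RNA of 4 libraries was reverse transcribed from 10 pg of RNA per sample, per the labels' protocols, with a low-input kit. Build mm10 and the tools Partek 10.0, DESeq2 and STAR 2.7.8 are named by the submitters' processing notes. Counter, annotation, strand and the handling of multiply placed reads are not given in those notes, the labels or the file. Each deposited value is a normalised signal for a gene in a library, by the authors' scaling, and not a whole count. Of values between 0.5 and 1000 steps, 73.5% to 75.1% per library were whole multiples of 1 step (tolerance 0.02), so no count model was run, and depth and reads are estimates, the value divided by the step. Of the gene columns 88 were checked singly and the others were assumed to be of the same kind.

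Genes with a mean of 10 or more (13010) were tested with limma 3.58.1 in R 4.3.3 with a variance trend on log2(value + 1), two-sided, without a replicate term. An exact permutation test of 2 against 2 libraries cannot reach 0.05. The steps were tested on simulated data. Lengths and positions came from GENCODE M21 on GRCm38, which mm10 denotes, for 98.8% of genes, with gamma genes matched by their older symbols. Sequences were aligned with Biopython 1.88. Of 90 listed genes besides the 10, 68 were analysed. The 10 genes, lists and tests were chosen with earlier results of these data known. Genes were named by a fixed rule: the 10, up to 4 per list by mean, receptor segments with a mean of 10 or more, and 3 of most similar pattern, and genes named beyond it were chosen after their values were seen. Some genes that the rule would name are not reported here.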

Additional observations from a re-analysis of the deposited data

How the results depend on the processing

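The 8 genes tested were recomputed under 16 alternatives each, 128 values in all, of which 123 kept their direction and stayed short of the threshold, 2 turned sign and 3 passed it. Both sign changes and the 3 passes came from leaving out a library: without each in turn, Cd3e ranged from -0.16 to 0.46, Cd3g from -0.51 to 0.06, Trgc1 from -0.74 to -0.01, Trbc2 from -0.68 to -0.02, Trbc1 from -0.58 to -0.11, Cd247 from -0.39 to -0.07, Trgc2 from -0.31 to -0.10 and Trdc from 0.54 to 1.32. Over all genes limma called 0 of 13010, and also 0 with other pseudocounts, filters, scalings, no variance trend or the length trend removed. Without single libraries it called between 12 and 1633. With a replicate block it called 20, and with crossed pairs, chosen after seeing the data, 61; the cause was not tested. The labels give nothing that pairs the libraries, so the numbers are not taken as pairs. Same-numbered libraries deviated against each other (correlation -0.24 over genes), which with 2 libraries per group cannot settle whether they were paired. The replicate block left the 8 genes short of the threshold.

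The ratio of constant to CD3 genes per kb was 39.8 in anti-CD226 and 44.8 in isotype libraries. By construction it moves with the genes and lengths in it. In anti-CD226 it was 12.5 without length, 21.9 with mean lengths, 59.3 without Cd247 and 0.118 with Trac and Trdc alone, and in isotype libraries 13.9, 24.6, 67.9 and 0.0661 under the same settings. Added after seeing the data, coding transcripts gave 21.1 in anti-CD226 and 23.8 in isotype libraries, and leaving out Trbc2 and Trgc1 gave 5.41 in anti-CD226 and 5.94 in isotype libraries. Single libraries gave 35.3 to 44.4 in anti-CD226 and 42.2 to 47.4 in isotype. Trac, with 14 reads over the 4 libraries, and Cd3d, with 16, lay under the filter. Differences of these genes between the groups were not tested, and counts this low leave any fold uncertain.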

Other observations

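Signalling chains and adaptors of other receptors also differed widely in level. Cd79b, a chain of the B cell receptor, had 210 and 166 normalised reads in the anti-CD226 libraries and 192 and 172 in the isotype libraries. The other B cell transcripts analysed here were lower, with Ighm, the constant region of the mu chain, at 29.9 and 15.4 in anti-CD226 and 28.7 and 20.1 in isotype libraries, and Igkc, that of the kappa chain, at 5.15 and 0 in anti-CD226 and 4.42 and 0.773 in isotype libraries. Hcst, the adaptor of NKG2D, had 299 and 189 in anti-CD226 and 264 and 327 in isotype libraries. Fcer1g, the gamma chain of Fc receptors, had between 27.0 and 42.0 in a library, and Tyrobp, the adaptor DAP12, between 1.03 and 4.41. Ubash3a, a suppressor of T cell receptor signals, had 484 and 621 in anti-CD226 and 486 and 545 in isotype libraries. Of these chains and adaptors Cd79b, Hcst and Fcer1g were tested. Of the 3, 0 passed limma's adjusted threshold, against 0% of all 13010 genes tested.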
